A study of Drosophila melanogaster with 107 samples.

Results

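The genes described here are 79 Drosophila melanogaster genes that the deposited tables name only by a CG number and whose level in γ neurons was highest around the start of metamorphosis. They are 79 of 7191 CG-numbered genes and of 17050 genes in all. A gene was taken when the highest of its 14 stage means in γ neurons fell at 0, 3, 6 or 9 h after puparium formation, was at least 50 normalized reads, and was at least 3 times the means at the third larval instar (L3), at 18 h and in the adult, with 1 added to every mean. The stage means of the developmental libraries therefore chose the members, and their stage course is given as a description without a test. The libraries of the perturbation experiment, and the adult cells other than γ neurons, played no part in the choice and were tested.

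The mushroom body is the brain center of insects for olfactory learning, and its γ neurons are the first-born of its intrinsic neurons, the Kenyon cells. A pulse of the steroid hormone ecdysone at the end of larval life acts through the ecdysone receptor EcR, and γ neurons then prune their larval axon branches and dendrites and later grow adult ones. EcR turns on a cascade of transcription factors that includes Eip75B (E75, a nuclear receptor) and Sox14 (an HMG-box factor needed for pruning). CG numbers are the annotation's provisional names, so that many of these genes have no described role.

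The series sequenced 3' ends of polyadenylated RNA in bulk from 1000 sorted DsRed+ brain cells per library. The developmental libraries of γ neurons came from y,w/+; UAS-RedStinger/+;71G10/+ animals, in which the 71G10 driver marks the cells with the red nuclear reporter RedStinger, at L2, at L3, every 3 h between 0 and 30 h and in adults 3 to 5 days old, with 3 or 4 libraries a stage. Further adult groups of 4 libraries each were astrocyte-like cells (marked by alrm-Gal4 driving UAS-RedStinger, over cyo, and UAS-CD8:GFP, together with UAS-Dcr2, over TM6, tb), αβ neurons, a later-born Kenyon cell type (y,w/w; UAS-RedStinger/+;NP3061-GAL4/+), and neurons outside the mushroom body (UAS-RedStinger driven by C155-GAL4 over y,w and held off in the mushroom body by MB247-GAL80). The perturbation libraries were γ neurons at L3, 0 h, 6 h and 12 h that expressed EcR-DN, a dominant-negative form of the receptor, E75 RNAi or Sox14 RNAi, and controls of the y,w/+; UAS-RedStinger/+;71G10/+ genotype, with 2 or 3 libraries a group. The strain label of a perturbation group names the transgene alone. All groups carry the sort for DsRed, animals of both sexes were taken at random, and a group holds the cells that its driver marks. The labels do not say that replicates came from separate animals, so that p-values measure the spread between these libraries, which may be technical.

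The developmental libraries summed to 1343651 to 2068007 normalized reads and those of the perturbation experiment to 1896123 to 2501051. Between 5850 and 8542 genes were above 0 in a library. The 19 Kenyon cell markers made up 3.54% to 7.91% of the γ neuron libraries at L3, 0 h and 3 h and 0.643% to 0.998% of the astrocyte-like libraries, where 13 glial markers made up 1.94% to 2.76%. In γ neuron libraries of the developmental table the glial markers stayed at or under 0.0624%. In bulk libraries, fewer cells of a type and less RNA per cell cannot be told apart.

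The targeted genes were read as a check of the labels. Sox14 had 1154, 1037 and 1093 normalized reads in Sox14 RNAi libraries at L3, against 6368 and 7474 in control. At 0 h it had 939, 1118 and 996 in Sox14 RNAi, against 7347, 7888 and 7100 in control, so that Sox14 was lower in every Sox14 RNAi library at these stages. At 6 h Sox14 had 774, 530 and 428 in Sox14 RNAi and 471 and 503 in control, where the groups overlapped. Eip75B had 22294, 19280 and 14881 normalized reads in libraries labelled E75 RNAi at L3, against 25956 and 33983 in control, all lower without passing the test (log2 fold change -0.68, limma adjusted p = 0.152). At 0 h it had 25881 and 31623 in libraries labelled E75 RNAi and 28816, 25661 and 36319 in control, which overlapped, and at 6 h 18185, 19423 and 14794, against 6318 and 8483. Eip75B reads therefore do not settle the E75 RNAi label. A dominant-negative receptor need not lower EcR RNA, and whether its reads were counted as EcR is not known. EcR had 1249, 1186 and 1208 in EcR-DN at L3, against 4007 and 5478 in control. At 0 h it had 3259, 3102 and 3455 in EcR-DN and 2182, 2384 and 3497 in control, which overlapped, and at 6 h 2610, 2674 and 2148, against 308 and 347. EcR was thus lower in EcR-DN at L3 and higher at 6 h (log2 fold changes -1.95 and 2.91, limma adjusted p = 6.35e-09 and 1.07e-13).

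A pair of Sox14 RNAi libraries stood closer to the other stage than to their own. The library labelled Sox14 RNAi 0 h replicate A correlated with 0 h replicates B and C at 0.856 and 0.876 (Pearson's r of log2 values across genes), and with L3 replicates B and C at 0.894 and 0.889. The library labelled Sox14 RNAi L3 replicate A correlated with L3 replicates B and C at 0.873 and 0.881, and with 0 h replicates B and C at 0.881 and 0.893. Replicates B and C correlated at 0.904 within L3 and 0.904 within 0 h, and at 0.880 to 0.903 across the stages, so that L3 and 0 h libraries of Sox14 RNAi were close to each other throughout. The libraries labelled E75 RNAi 0 h also stood apart: they correlated at 0.856 with each other, against 0.890 to 0.930 in the other 4 groups of 2 libraries. Against the mean of each group, E75 RNAi 0 h replicate A was closest to control 0 h and replicate B to E75 RNAi L3. Libraries of other groups were also closest to a group not their own by this measure. Among them were control L3 replicate B, closest to Sox14 RNAi L3, and control L3 replicate C, closest to control 0 h. Counts of Sox14 RNAi at L3 and 0 h are given with and without both libraries.

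Every member matched the Release 6 plus ISO1 MT annotation of RefSeq by its CG number, and all 79 are protein coding there. The annotation gives 14 of them another symbol. They include Cipc (CG31324, a partner of the circadian factor Clock), Jhbp2 (CG2016, of the juvenile hormone binding protein family), Ctl2 (CG11880, a choline transporter-like protein), BNIP3 (CG5059, a mitophagy receptor) and DIP-kappa (CG31814, an immunoglobulin-domain surface protein of the DIP family). Others with a known role are Dus1 (CG3645, a dihydrouridine synthase for tRNA), Sf3b5 (CG11985, a splicing factor subunit), Lamtor3 (CG5110, a subunit of the Ragulator complex at lysosomes) and Naxe (CG2974, an epimerase that repairs NAD(P)HX). Among those that keep their CG number are the solute carrier CG6231, the monocarboxylate transporter relative CG8034, the ABC transporter CG3164, the γ-glutamyl transpeptidase CG4829, the asparaginase CG7860, the phosphoserine aminotransferase CG11899, the diacylglycerol kinase CG34384 and the orphan G protein-coupled receptor CG13579.

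Exons of 30 members overlap another gene on either strand, 9 of them on the same strand, and whether the counting used strand is not stated. CG34106 equals beat-IIIa, a gene of the Beaten path family, in every library of both tables, so that its values cannot be assigned to either gene. CG3645 and CG17075 are neighbours whose log2 values correlated at 0.995 over 52 γ neuron libraries and at 0.983 over 43 perturbation libraries. Whether they share reads was not tested, and both are reported as uncertain.

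In the developmental γ neuron libraries the 79 genes together made up 0.570% to 0.847% of a library at L3, 2.74% to 3.44% at 0 h, 4.43% to 5.14% at 3 h, 3.08% to 3.47% at 6 h and 1.37% to 1.48% at 9 h. By 18 h the share was 0.571% to 0.617%, and in the adult it was 0.332% to 0.366%. The highest stage was 0 h for 12 members, 3 h for 49, 6 h for 17 and 9 h for 1. The median member stood at 10.6% of its own highest stage mean at L3, 52.8% at 0 h, 72.4% at 6 h, 24.8% at 9 h, 9.96% at 18 h and 5.84% in the adult. At L2 the median was 11.5%, and 38 members had a higher mean at L2 than at L3. Of the members, 13 were at or above 50% of their highest mean at 1 stage, 32 at 2 stages and 28 at 3 stages. A further 3 members each held that level over 4 and over 5 stages. The rule keeps L3, 18 h and the adult below that level, so that a short peak is partly fixed by the choice of members.

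**Figure D1:**
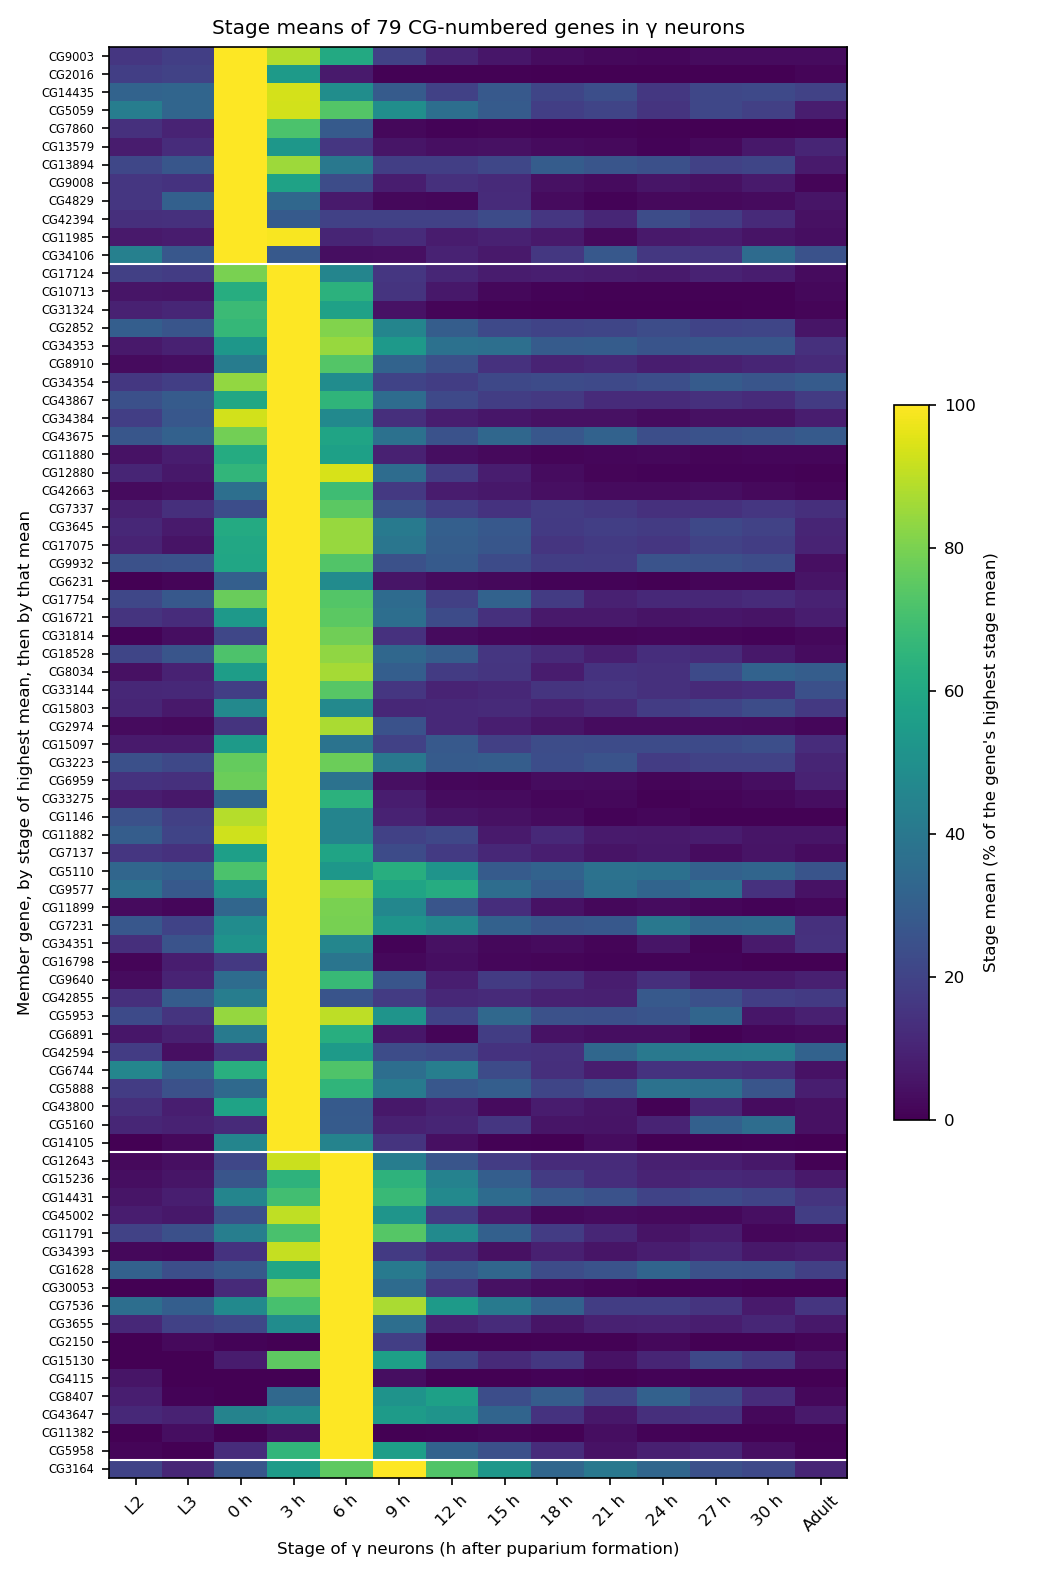
Stage means of the 79 members in γ neurons (rows, one gene each, grouped by the stage of the highest mean and ordered by that mean; white lines separate the groups) at 14 stages (columns, L2 to adult), colored from 0 to 100% of the gene's highest stage mean. The bright band runs through 0, 3 and 6 h, and the medians at L3, 18 h and adult are 10.6%, 9.96% and 5.84%.

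The members differ widely in level. The highest stage mean was below 100 normalized reads for 18 members, 100 to 500 for 31, 500 to 1000 for 9 and at least 1000 for 21. The peak exceeded L3 by a median factor of 8.88, 18 h by 9.71 and the adult by 15.5. Just inside the threshold of 3-fold, the smallest of the 3 ratios was 3.05 for CG14435, 3.03 for CG6744 and 3.00 for CG3164. Just outside it were CG16854 at 2.94, CG5262 at 2.93 and CG12081 at 2.92.

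Among the 12 genes with the highest mean at 0 h, CG9003, which encodes an F-box and leucine-rich repeat protein, was the most abundant. It had 1752, 687 and 1476 normalized reads at L3, 7023, 8095, 5966 and 7162 at 0 h, 6471, 5307 and 6994 at 3 h, and 288, 248, 239 and 210 at 18 h. CG2016 (Jhbp2) had 479, 168 and 365 at L3, 1358, 1846, 1888 and 1774 at 0 h, 755, 763 and 1279 at 3 h, and 117, 188, 121 and 77 at 6 h. Thus CG9003 held its level at 3 h, while CG2016 was already low at 6 h, and from 9 h on no γ neuron library had more than 43 reads of it. CG7860, the asparaginase, had 67, 35 and 50 at L3, 385, 532, 487 and 622 at 0 h, 347, 449 and 294 at 3 h, and 4, 11, 16 and 10 at 9 h. CG5059 (BNIP3) changed less, with 407, 232 and 362 at L3, 999, 1027, 1009 and 1052 at 0 h, 480, 527, 546 and 464 at 9 h, and 119, 71, 62 and 79 in the adult. CG14435 behaved like it, at 489, 394 and 606 at L3, 1418, 1641, 1379 and 1622 at 0 h and 386, 224, 289 and 365 at 18 h. The libraries of the peak stage lay above those of L3 and of the adult for each of these 5 genes, as the rule favors.

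The 49 genes with the highest mean at 3 h include the most abundant members. CG17124 had 2623, 1344 and 2256 normalized reads at L3, 6468, 9688, 13297 and 7838 at 0 h, 17933, 7569 and 9447 at 3 h, and 4972, 5587, 5724 and 4907 at 6 h. Its 0 h and 3 h libraries overlapped, and 1 library at 3 h raised the mean there. CG10713 had 385, 240 and 382 at L3, 3735, 4302, 3648 and 3860 at 0 h, 6437, 6420 and 5896 at 3 h, 4085, 3118, 4595 and 4240 at 6 h, and 886, 959, 1060 and 864 at 9 h. CG31324 (Cipc) had 595, 445 and 842 at L3, 3488, 4675, 3866 and 4183 at 0 h, 7282, 4873 and 5679 at 3 h, 3532, 3331, 3376 and 3323 at 6 h, and 241, 257, 401 and 272 at 9 h. Both were highest in the 3 h libraries, without overlap with 0 h or 6 h, and CG31324 was back below its L3 libraries at 9 h. CG2852, a cyclophilin-type prolyl isomerase, had 1157, 1073 and 817 at L3, 3480, 4317 and 3690 at 3 h, and 234, 169, 217 and 262 in the adult. The immunoglobulin-domain gene CG34353 had 364, 195 and 458 at L3, 4498, 3085 and 3541 at 3 h, 3654, 2844, 2709 and 3321 at 6 h, and 1125, 913, 1161 and 1057 at 18 h, so that it stayed above its larval level.

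The 17 genes with the highest mean at 6 h differed in their levels at 3 h and 9 h. CG12643 had 116, 111 and 208 normalized reads at L3, 546, 832, 799 and 831 at 0 h, 3150, 4238 and 2401 at 3 h, 3691, 3082, 3502 and 3892 at 6 h, and 1212, 2079, 1282 and 1404 at 9 h. CG15236 had 86, 75 and 66 at L3, 966, 830 and 794 at 3 h, 1228, 1085, 1509 and 1528 at 6 h, and 1025, 649, 978 and 811 at 9 h. CG14431 had 89, 55 and 83 at L3, 602, 736 and 512 at 3 h, 839, 887, 736 and 1083 at 6 h, and 558, 600, 679 and 565 at 9 h. For these genes the 3 h and 9 h libraries were all above the L3 libraries. CG45002 had 32, 33 and 17 at L3, 453, 415, 361 and 471 at 6 h, and 12, 12, 6 and 8 at 18 h. CG11791 had 60, 49 and 79 at L3, 252, 268, 262 and 251 at 6 h, 208, 185, 167 and 201 at 9 h, and 36, 50, 46 and 50 at 18 h. CG2150, in contrast, was seen almost only at 6 h, with 83, 134, 128 and 117 there, 0 in all 3 libraries at 3 h, and 1, 0, 82 and 2 at 9 h. The single gene with its highest mean at 9 h was the ABC transporter CG3164, with 8, 19 and 15 at L3, 96, 107, 139 and 56 at 6 h, 127, 116, 144 and 143 at 9 h, and 18, 58, 51 and 47 at 18 h.

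The control libraries of the perturbation experiment carry the same stage labels in samples that the choice of members did not use. Members made up 1.10% and 1.30% of the control libraries at L3, 2.72% to 2.88% at 0 h, 2.82% and 2.89% at 6 h and 0.983% to 1.03% at 12 h. The L3 shares lay above the 0.570% to 0.847% of the developmental L3 libraries. Control L3 replicate C correlated at 0.926 with the control 0 h mean and at 0.909 with control L3 replicate B. Whether the experiments differ in stage at L3 was not tested, and all comparisons with control at L3 rest on these libraries. At 0 h against L3, 17 of 79 members rose and none of the called ones fell (limma on log2(value + 1), Benjamini-Hochberg adjusted p under 0.05 over 8656 genes), while 0.393% of all genes rose and 1.14% fell. The members' median log2 fold change was 1.07, against -0.04 over all genes. The count was 5 without control L3 replicate B, 4 without control L3 replicate C and 8 without control 0 h replicate A. Fitted on the 5 libraries compared alone it was 0, with 42 members at an unadjusted p under 0.05. The share of all genes at that level in this fit was not taken. In the main fit 33 of 79 members and 1030 of 8656 genes were at that level.

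CG8910 had 2347, 2330 and 1946 normalized reads in control at 0 h, against 521 and 389 at L3. That was a log2 fold change of 2.29 ± 0.35 (SE; limma adjusted p = 0.000148). CG6231, a transporter of the organic cation family, had 497, 499 and 418 at 0 h, against 50 and 16 at L3, a log2 fold change of 4.0 ± 0.94 (limma adjusted p = 0.0185). Their stages did not overlap, which was a condition for naming members in a comparison. CG42663 had 847, 564 and 700 at 0 h, against 206 and 82 at L3. CG10713 had 7346, 8356 and 6351 at 0 h, against 1315 and 1888 at L3.

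At 6 h against L3 in control, 31 members rose and 2 fell, where 4.04% of all genes rose and 5.24% fell, with a median log2 fold change of 1.29 for members and 0.00 for all genes. Of the 17 members with a developmental peak at 6 h, 15 rose. CG12643 had 3883 and 4358 normalized reads at 6 h, against 224 and 178 at L3 (log2 fold change 4.36 ± 0.37, limma adjusted p = 5.17e-12). CG30053 had 207 and 326 at 6 h, against 0 and 1 at L3, and CG34393 had 121 and 137 at 6 h and was listed at 0 in both L3 libraries. CG34106 fell, at 1 and 2 against 56 and 105, and so did CG4829, at 7 and 0 against 91 and 58. Both have their developmental peak at 0 h. The count called was 20 without control 6 h replicate C, and 0 in a fit on the 4 libraries alone. That fit had 46 members at an unadjusted p under 0.05, and its share of all genes at that level was not taken. In the main fit 43 of 79 members and 1634 of 8656 genes were at that level.

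At 12 h against 6 h in control, 33 members fell, where 3.35% of all genes fell and 1.39% rose, with a median log2 fold change of -1.35 for members and -0.04 for all genes. CG31324 (Cipc) had 73, 44 and 77 normalized reads at 12 h, against 1798 and 2230 at 6 h, a log2 fold change of -4.97 ± 0.42 (limma adjusted p = 7.36e-11). CG30053 had 27, 2 and 1 at 12 h, against 207 and 326 at 6 h. CG3655 had 1, 1 and 9 at 12 h, against 133 and 98 at 6 h. Each was lower in every 12 h library, which was a condition for naming CG30053 and CG3655. The count was 19 without control 6 h replicate A, 17 without replicate C, and 12 in a fit on the 5 libraries alone.

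The members' summed level at 0 h was lower than control in every perturbation library, and at 6 h it was above control in the libraries labelled E75 RNAi. At L3 the members made up 0.336% to 0.389% of EcR-DN libraries, 0.378% to 0.558% of libraries labelled E75 RNAi and 0.510%, 0.619% and 1.23% of those labelled Sox14 RNAi, against 1.10% and 1.30% in control. At 0 h the shares were 0.463% to 0.577% in EcR-DN, 1.61% and 1.63% in E75 RNAi and 0.437%, 1.0% and 1.0% in Sox14 RNAi, against 2.72% to 2.88% in control. At 6 h they were 1.18% to 1.26% in EcR-DN, 3.78% to 4.07% in E75 RNAi and 1.81% to 1.97% in Sox14 RNAi, against 2.82% and 2.89% in control. At 0 h and 6 h no library of a perturbation overlapped the control libraries, and the libraries labelled E75 RNAi were the only ones above control, at 6 h. By 12 h the shares were 0.689% and 0.816% in EcR-DN, 1.18% and 1.21% in E75 RNAi and 0.881% to 1.01% in Sox14 RNAi, against 0.983% to 1.03% in control. These sums are levels weighted to the most abundant members. Without CG2016 the share at 6 h was 3.33%, 3.07% and 3.23% in libraries labelled E75 RNAi, against 2.87% and 2.82% in control.

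**Figure D2:**
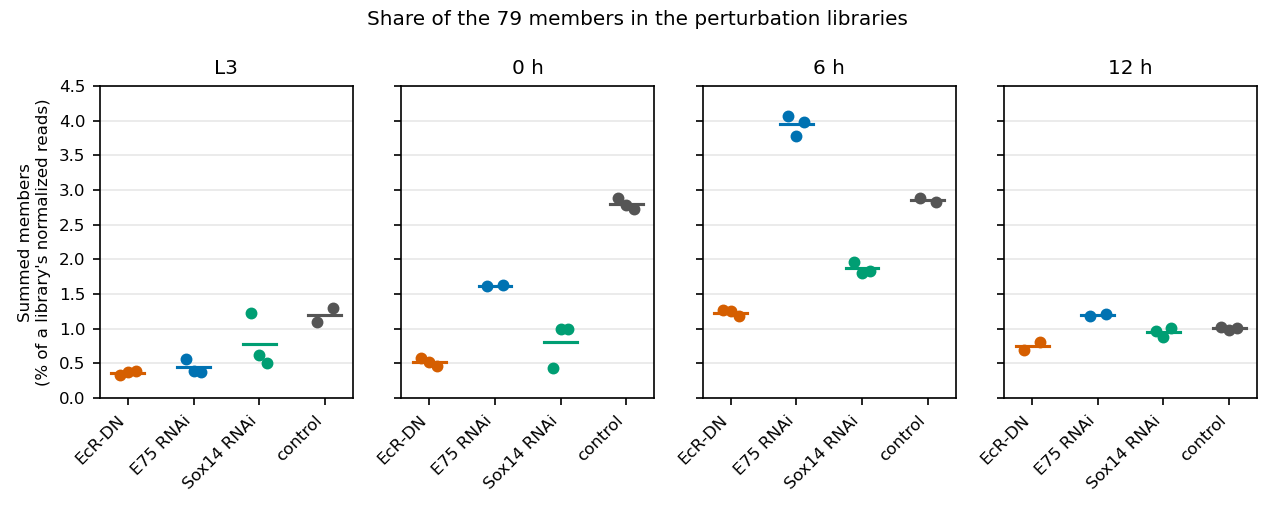
Summed normalized reads of the 79 members as a percent of each perturbation library (points, one library each; horizontal lines, group means) at L3, 0, 6 and 12 h, with EcR-DN, E75 RNAi, Sox14 RNAi and control from left to right. At 0 h all perturbation libraries lie below 2.72%, the lowest control library, and at 6 h the libraries labelled E75 RNAi lie at 3.78% to 4.07%, above control.

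In EcR-DN 27, 42 and 15 of 79 members were lower than control at L3, 0 h and 6 h, and few differed at 12 h. At 0 h, 42 of 79 members fell against control and no called member rose, where 6.41% of all genes fell and 10.4% rose (limma, Benjamini-Hochberg adjusted p under 0.05). The median log2 fold change was -2.02 for members and 0.20 for all genes. At L3, 27 fell and 1 rose, where 4.4% of all genes fell and 3.84% rose, with medians of -1.21 and 0.05. At 6 h, 15 fell and 1 rose, where 1.99% of all genes fell and 4.86% rose, with medians of -1.17 and -0.02. At 12 h 1 fell and 1 rose, where 0.809% of all genes fell and 4.01% rose. The 0 h count was 36 to 41 when 1 of the 6 libraries compared was left out, and 40 in a fit on those 6 alone. The other counts depended more on single libraries: the L3 total of 28 was 18 without control L3 replicate C and 14 in a fit on the 5 libraries alone. The 6 h total of 16 was 3 without control 6 h replicate C, 9 without replicate A, 10 without EcR-DN 6 h replicate A and 10 on the 5 libraries alone. The 12 h total of 2 was 1 without control 12 h replicate A, control 12 h replicate B or EcR-DN 12 h replicate B, 0 without EcR-DN 12 h replicate A, and 4 without the libraries labelled Sox14 RNAi L3 replicate A and 0 h replicate A.

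Markers fixed for cell types also differed. The 19 Kenyon cell markers summed to 68497 to 73410 normalized reads in EcR-DN at L3, against 125708 and 128777 in control, and to 88360 to 102634 at 0 h, against 117500 to 185453. The 6 general neuron markers summed to 19646 to 19767 in EcR-DN at L3, against 11274 and 13439, and to 19464 to 26411 at 0 h, against 6866 to 8487. The 7 neuroblast markers summed to 11083 to 18096 in EcR-DN at L3, against 3630 and 5568 in control, and to 12663 to 13716 at 0 h, against 1811 to 1955. Nearly all of that sum was pros, a gene that neurons also express, and without it the sums were 121 to 225 against 12 and 76 at L3, and 41 to 163 against 1 to 56 at 0 h. In control at 0 h 3 of the 7 genes were at 0 in all libraries. The 13 glial markers summed to 764 to 1019 in EcR-DN at L3, against 401 and 462 in control. At 0 h they summed to 780 to 888, against 238 to 315, and at 6 h to 728 to 877, against 1024 and 1121. The part of such differences in the members' values was not tested.

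CG10713 had 474, 631 and 281 normalized reads in EcR-DN at 0 h, against 7346, 8356 and 6351 in control, a log2 fold change of -4.06 ± 0.51 (SE; limma adjusted p = 1.04e-07). CG11880 (Ctl2), a choline transporter-like gene, had 42, 58 and 26 in EcR-DN at 0 h, against 1164, 852 and 843 in control (-4.53 ± 0.36, limma adjusted p = 1.59e-11). CG6231 had 41, 50 and 1 in EcR-DN, against 497, 499 and 418 in control (-4.86 ± 0.84, limma adjusted p = 2.98e-05). In none of these did the groups overlap, which was a condition for naming CG11880 and CG6231. At 6 h CG10713 had 1818, 1461 and 1679 in EcR-DN, against 5592 and 5101 in control, and CG11880 had 302, 329 and 307 in EcR-DN, against 732 and 492 in control. Both were closer to control than at 0 h. CG43800 also fell at 0 h, where it had 10, 3 and 1 in EcR-DN, against 150, 65 and 78 in control.

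At L3 CG2016 (Jhbp2) had 8, 33 and 31 normalized reads in EcR-DN, against 622 and 1132 in control, a log2 fold change of -5.30 ± 0.81 (SE; limma adjusted p = 7.29e-06). CG7860, the asparaginase, had 27, 28 and 4 in EcR-DN, against 412 and 443 in control (-4.75 ± 0.80, limma adjusted p = 3.78e-05). CG13579, the orphan receptor, had 0, 5 and 2 in EcR-DN, against 127 and 70 in control. CG6959 had 0, 11 and 2 in EcR-DN, against 77 and 109 in control. These larval libraries carry a stage label before the developmental peak. The 4 genes were lower in every EcR-DN library, which was a condition for naming them. The member that rose was CG8407, at 25, 20 and 33 in EcR-DN, against 1 and 2 in control at L3, while at 6 h it had 0, 4 and 7 in EcR-DN, against 71 and 139 in control. The other members with the largest falls at 6 h were CG5958, at 12, 0 and 2 against a control mean of 166, CG30053, at 2, 12 and 23 against 207 and 326, and CG15130, at 14, 2 and 0 against 77 and 47. At 12 h CG5958 had 1 and 4 in EcR-DN, against 79, 70 and 17 in control, and was the 1 member that fell. CG34351 was the 1 that rose, and it was listed at 0 in all 3 control libraries at 12 h. The member that rose at 6 h was CG34106, whose values equal those of beat-IIIa.

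In libraries labelled E75 RNAi the members that differed from control were lower at L3 and 0 h. At 6 h few differed, and their split by direction depended on the pseudocount. At L3, 22 of 79 members fell and no called member rose, where 1.64% of all genes fell and 1.56% rose (limma, Benjamini-Hochberg adjusted p under 0.05), with median log2 fold changes of -0.95 for members and 0.02 for all genes. At 0 h, 18 fell and no called member rose, where 3.28% of all genes fell and 3.47% rose, with medians of -0.60 and -0.04. Leaving out 1 of the libraries compared gave 12 to 18 at 0 h. The E75 RNAi 0 h libraries stood apart from each other, and their Kenyon cell markers summed to 76115 and 98651 normalized reads, against 117500 to 185453 in control. At L3 these markers summed to 70803 to 99607 in E75 RNAi, against 125708 and 128777 in control. The general neuron markers summed to 15723 to 21338 at L3, against 11274 and 13439, and the neuroblast markers, with pros, to 9798 to 13926, against 3630 and 5568. The glial markers overlapped at L3, at 392 to 649 against 401 and 462. The part of these differences in the counts was not tested. At 6 h 7 rose (8.86%) and 2 fell (2.53%), where 4.75% of all genes rose and 3.64% fell, with medians of 0.16 and -0.14. With a pseudocount of 8 in place of 1, 9 rose and 8 fell at 6 h. At 12 h 5 rose and 2 fell, where 3.21% of all genes rose and 1.21% fell. Fits on the groups compared alone called 0 members at L3 and 0 at 0 h, with 31 and 28 members at an unadjusted p under 0.05, and 2 at 12 h. The shares of all genes at that level in these fits were not taken. In the main fit 37 members and 1061 of 8656 genes were at that level at L3, and 29 and 1667 at 0 h. The L3 count was 12 without control L3 replicate C, the 6 h count of 9 was 5 without control 6 h replicate C, and the 12 h count of 7 was 3 without E75 RNAi 12 h replicate A.

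CG2016 (Jhbp2) showed the largest rise. It had 17409, 16786 and 17458 normalized reads in libraries labelled E75 RNAi at 6 h, against 235 and 193 in control, a log2 fold change of 6.33 ± 0.81 (SE; limma adjusted p = 1.52e-07). At 12 h it had 3503 and 3469 in E75 RNAi, against 7, 3 and 42 in control (8.29 ± 0.81, limma adjusted p = 4.13e-10). At L3, by contrast, it had 1207, 313 and 314 in E75 RNAi and 622 and 1132 in control, and at 0 h 6771 and 5797 in E75 RNAi and 2824, 2335 and 1845 in control. The groups overlapped at L3, and at 0 h both E75 RNAi libraries were higher without the difference passing the test. In control the gene was highest at 0 h and low at 6 h, whereas in the libraries labelled E75 RNAi the values at 6 h were the highest of the 4 stages.

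CG7860 turned with the stage. It had 48, 9 and 19 normalized reads in E75 RNAi at L3, against 412 and 443 in control (log2 fold change -4.32 ± 0.80, limma adjusted p = 0.000468), and 921, 907 and 1140 in E75 RNAi at 6 h, against 212 and 82 in control (2.89 ± 0.80, limma adjusted p = 0.0146). At 0 h it had 429 and 476 in E75 RNAi, against 1153, 769 and 763 in control. Other members fell at L3 or 0 h. At L3 CG6959 had 4, 0 and 0 in E75 RNAi, against 77 and 109 in control, CG9008 had 4, 6 and 3, against 90 and 172, and CG13894 had 0, 17 and 8, against 118 and 91. At 0 h CG5953 was listed at 0 in both E75 RNAi libraries, against 27, 62 and 144 in control, and CG42594, a potassium channel gene, was listed at 0 in both, against 98, 12 and 43. CG12643 stayed lower at 6 h, with 2109, 1893 and 2032 in E75 RNAi, against 3883 and 4358 in control, and CG30053 had 0, 40 and 0, against 207 and 326.

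Further members were higher at 6 h or 12 h. CG34384, the diacylglycerol kinase, had 2696, 2382 and 2842 normalized reads in E75 RNAi at 6 h, against 502 and 660 in control (log2 fold change 2.19 ± 0.42, limma adjusted p = 0.00023). CG5059 (BNIP3) had 2003, 1804 and 3144 in E75 RNAi at 6 h, against 902 and 970 in control (1.26 ± 0.28, limma adjusted p = 0.00169). CG34351 had 271, 68 and 285 in E75 RNAi at 6 h, against 1 and 31 in control. At 12 h CG11899, the phosphoserine aminotransferase, had 260 and 284 in E75 RNAi, against 27, 10 and 16 in control. CG3655 had 75 and 66 in E75 RNAi at 12 h, against 1, 1 and 9 in control, and CG31324 (Cipc) had 246 and 218, against 73, 44 and 77. The E75 RNAi libraries were higher than every control library in each case, which was a condition for naming all but CG34384 and CG5059. CG17075 and CG3645, which may share reads, were lower at 12 h, with 167 and 122 and with 212 and 167 in E75 RNAi, against 360, 518 and 459 and against 420, 556 and 498 in control.

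In Sox14 RNAi all called members at 0 h, and all but 1 of those at 6 h, were lower than control. At 0 h 47 of 79 fell and no called member rose, where 4.98% of all genes fell and 3.57% rose (limma, Benjamini-Hochberg adjusted p under 0.05), with median log2 fold changes of -2.25 for members and 0.10 for all genes. At 6 h 28 fell and 1 rose, where 3.7% of all genes fell and 2.29% rose, with medians of -1.37 and 0.00. At L3 17 fell, where 1.52% of all genes fell and 0.22% rose, with medians of -1.0 and 0.00. At 12 h 5 fell and 1 rose, where 0.67% of all genes fell and 0.936% rose. Without the libraries labelled Sox14 RNAi L3 replicate A and 0 h replicate A, 38 members fell at 0 h and 15 at L3. Fits on the groups compared alone called 22 at 0 h, 1 at L3 and 1 at 12 h. Leaving out control 6 h replicate A, control 6 h replicate C or Sox14 RNAi 6 h replicate C gave 19, 16 and 19 at 6 h. The L3 count was 6 without control L3 replicate B, 6 without control L3 replicate C and 9 without Sox14 RNAi L3 replicate C, and the 12 h count of 6 was 3 without control 12 h replicate A and 3 without replicate B.

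CG31324 (Cipc) had 80 and 152 normalized reads in Sox14 RNAi replicates B and C at 0 h, and a mean of 129 with the library labelled replicate A, against 3054, 2688 and 4398 in control. Its log2 fold change was -4.73 ± 0.37 (SE; limma adjusted p = 1.7e-12). At 6 h it had 248, 236 and 213 in Sox14 RNAi, against 1798 and 2230 in control (-3.10 ± 0.42, limma adjusted p = 1.52e-06). CG31814 (DIP-kappa) had 4, 2 and 2 in Sox14 RNAi at 0 h, against 148, 141 and 147 in control (-5.36 ± 0.83, limma adjusted p = 8.93e-06), and 8, 20 and 9 at 6 h, against 465 and 453. All Sox14 RNAi libraries were below all control libraries at both stages for both genes, which was a condition for naming CG31814 at 0 h. The transporter relative CG8034 had 21, 2 and 2 in Sox14 RNAi at 0 h, against 114, 285 and 352 in control. CG15803 had 2, 5 and 11 in Sox14 RNAi at 0 h, against 281, 124 and 212, and CG7536 had 1, 9 and 1, against 134, 170 and 127.

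Not every abundant member followed. CG10713 had 5886, 5311 and 4035 normalized reads in Sox14 RNAi at 6 h and 5592 and 5101 in control, where the groups overlapped. At 0 h it had 407, 3036 and 2909 in Sox14 RNAi, against 7346, 8356 and 6351 in control, and the library labelled replicate A was the lowest. CG9932 was the member that rose at 6 h, with 1315, 1367 and 1009 in Sox14 RNAi, against 602 and 654 in control (log2 fold change 0.96 ± 0.29, limma adjusted p = 0.0414). At 12 h CG8910 had 226, 253 and 407 in Sox14 RNAi, against 999, 1196 and 1225 in control (-1.99 ± 0.32, limma adjusted p = 0.000145), CG12880 had 46, 60 and 58, against 391, 321 and 276, and CG5958 had 0, 1 and 1, against 79, 70 and 17. CG2016 was the member that rose at 12 h, with 84, 17 and 617 against 7, 3 and 42, where the libraries overlapped. At L3 CG4829 had 0, 0 and 7 in Sox14 RNAi, against 91 and 58 in control.

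**Figure D3:**
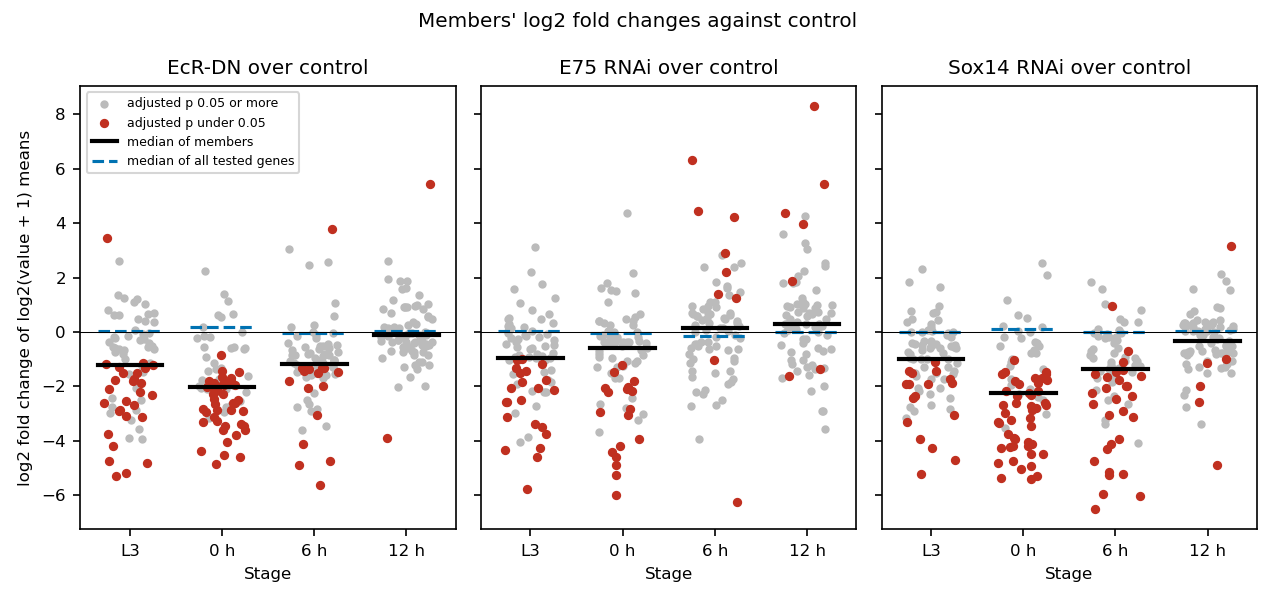
Log2 fold changes of the 79 members against control (points, one gene each) for EcR-DN, E75 RNAi and Sox14 RNAi at 4 stages, red where the limma adjusted p is under 0.05; black bars are member medians and dashed blue bars are medians over all 8656 genes. The member medians are -2.02 and -2.25 for EcR-DN and Sox14 RNAi at 0 h, and 0.16 for E75 RNAi at 6 h.

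Median effects at 0 h and 6 h are given by developmental peak. The 12 genes that peak at 0 h in development had a median log2 fold change of -2.41 in EcR-DN at 0 h and -0.19 at 6 h, and the 17 genes that peak at 6 h had -0.92 at 0 h and -2.75 at 6 h. In Sox14 RNAi the corresponding medians were -2.50 and -0.25 for the 12 genes, and -1.03 and -3.38 for the 17 genes. In libraries labelled E75 RNAi they were -0.36 and 0.79 for the 12 genes, and -0.94 and -1.16 for the 17 genes. The 49 genes that peak at 3 h had -2.19 and -1.14 in EcR-DN, -0.66 and 0.50 in E75 RNAi, and -2.29 and -1.37 in Sox14 RNAi. The grouping follows the stage of the highest mean, and a gene near 0 in control at a stage can hardly fall there. A larger fall at the peak stage is therefore partly fixed by the grouping. These medians were not tested against each other, and all 3 perturbations share the control libraries.

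The change of each effect between the stages was tested gene by gene, in comparisons added after the data had been seen. The effect at 6 h minus the effect at 0 h was positive in 19 called members for E75 RNAi and negative in no called member, where 2.38% of all genes were called higher and 1.69% lower (limma, Benjamini-Hochberg adjusted p under 0.05). For EcR-DN it was positive in 14 and negative in 1, where 2.74% of all genes were called higher and 2.08% lower. For Sox14 RNAi it was positive in 10 and negative in 1, where 1.26% of all genes were called higher and 1.36% lower. With a pseudocount of 8 it was positive in 12 and negative in 7 for Sox14 RNAi. The EcR-DN total of 15 was 9 without control 6 h replicate A and 8 without replicate C. The E75 RNAi count was 11 without control 6 h replicate A and 12 without E75 RNAi 0 h replicate A. The Sox14 RNAi total of 11 was 4 without control 6 h replicate A, 5 without replicate C, 6 without the library labelled Sox14 RNAi 0 h replicate A, 6 without Sox14 RNAi 6 h replicate A, 8 without the libraries labelled Sox14 RNAi L3 replicate A and 0 h replicate A together, and 2 in a fit on the groups compared alone. CG8910 shows the pattern for E75 RNAi: it had 398 and 578 normalized reads in E75 RNAi at 0 h, against 2347, 2330 and 1946 in control, and 5650, 4448 and 5018 at 6 h, against 2507 and 2788 in control. Its difference of effects was 3.12 ± 0.50 on the log2 scale (limma adjusted p = 6.45e-05).

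**Figure D4:**
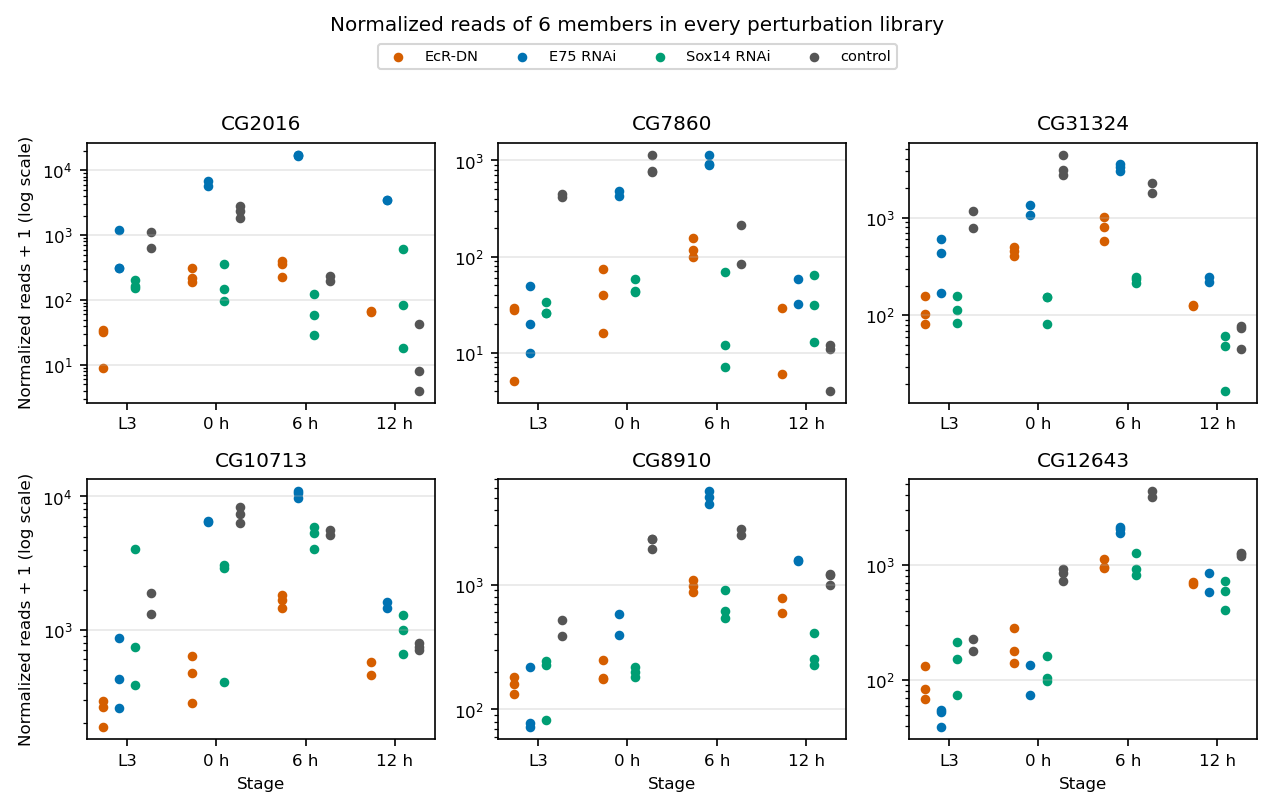
Normalized reads plus 1 (log scale) of 6 members in every perturbation library (points) at L3, 0, 6 and 12 h, with EcR-DN, E75 RNAi, Sox14 RNAi and control from left to right within a stage. CG2016 lies at 16786 to 17458 in E75 RNAi at 6 h and at 193 to 235 in control, and CG31324 at 213 to 248 in Sox14 RNAi and 1798 to 2230 in control.

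Direct comparisons between perturbations leave the control libraries out of the compared means, though not out of the filter and the shared spread. At 0 h 28 members were lower and 3 higher in EcR-DN than in E75 RNAi, where 6.1% of all genes were lower and 10.8% higher (limma, Benjamini-Hochberg adjusted p under 0.05). At 0 h 25 were lower and 1 higher in Sox14 RNAi than in E75 RNAi, where 5.83% of all genes were lower and 5.4% higher. At 6 h 36 were lower and 1 higher in EcR-DN than in E75 RNAi, where 6.04% of all genes were lower and 7.54% higher. At 6 h 42 were lower and 1 higher in Sox14 RNAi than in E75 RNAi, where 8.92% of all genes were lower and 7.98% higher. The members' median log2 fold change at 6 h was -1.29 for EcR-DN and -1.43 for Sox14 RNAi against E75 RNAi, and 0.11 and 0.16 over all genes. Fits on the groups compared alone gave 15 for EcR-DN against E75 RNAi at 0 h, and 0 for Sox14 RNAi against E75 RNAi at 0 h. The latter had 31 members at an unadjusted p under 0.05, and its share of all genes at that level was not taken. In the main fit 41 of 79 members and 2048 of 8656 genes were at that level. Without the libraries labelled Sox14 RNAi L3 replicate A and 0 h replicate A, 28 were called for Sox14 RNAi against E75 RNAi at 0 h.

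CG31814 (DIP-kappa) had 37, 4 and 17 normalized reads in EcR-DN at 0 h, against 353 and 490 in E75 RNAi, a log2 fold change of -4.79 ± 0.92 (limma adjusted p = 0.000175). CG15236 went the other way at 0 h. It had 176, 182 and 157 in EcR-DN and 125, 154 and 119 in Sox14 RNAi, against 24 and 31 in E75 RNAi (limma adjusted p = 2.42e-07 and 6.32e-06). At 6 h CG2016 had 124, 58 and 28 in Sox14 RNAi, against 17409, 16786 and 17458 in E75 RNAi (-8.17 ± 0.72, limma adjusted p = 7.38e-12). CG34351 had 0, 1 and 2 in Sox14 RNAi at 6 h, against 271, 68 and 285 in E75 RNAi, and CG34393 had 1, 3 and 0, against 150, 98 and 222. The libraries of each pair of groups did not overlap, which was a condition for naming these genes.

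EcR-DN and Sox14 RNAi differed from each other in fewer members. At 0 h 9 were higher and 5 lower in EcR-DN than in Sox14 RNAi, where 6.43% of all genes were higher and 2.65% lower, with median log2 fold changes of 0.06 for members and 0.09 for all genes. Without EcR-DN 0 h replicate A the members' median was -0.03. At 6 h 11 were higher and 7 lower, where 5.87% of all genes were higher and 2.84% lower, with medians of 0.21 and 0.00. The 0 h count of 14 was 7 without Sox14 RNAi 0 h replicate C, 1 in a fit on the groups compared alone and 17 without the libraries labelled Sox14 RNAi L3 replicate A and 0 h replicate A. CG7536 had 64, 53 and 75 normalized reads in EcR-DN at 0 h, against 1, 9 and 1 in Sox14 RNAi (4.23 ± 0.73, limma adjusted p = 7.3e-05). At 6 h CG6959 had 34, 104 and 76 in EcR-DN, against 4, 2 and 6 in Sox14 RNAi, and CG8407 had 0, 4 and 7, against 21, 78 and 86. A member could thus be higher in either perturbation. The libraries did not overlap, which was a condition for naming these genes.

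The 116 genes with other symbols that meet the same rule give the nearest set for comparison. Of them, 48 fell and 1 rose in EcR-DN at 0 h, 17 fell and 1 rose in E75 RNAi at 0 h, and 51 fell and 1 rose in Sox14 RNAi at 0 h. Their medians were -1.36, -0.61 and -1.71 on the log2 scale. At 6 h 19 fell and 2 rose in EcR-DN, 6 fell and 12 rose in E75 RNAi, and 36 fell and 2 rose in Sox14 RNAi. An ecdysone response list had 28 genes tested, none of them a member. In EcR-DN 10 fell and 2 rose at L3, and 8 fell and 3 rose at 0 h. At 6 h 6 rose and 2 fell in EcR-DN, with a median log2 fold change of 0.31. In E75 RNAi 2 fell and 2 rose at L3, 1 fell and 6 rose at 0 h, and 12 rose and 2 fell at 6 h, with a median log2 fold change of 1.23. In Sox14 RNAi 2 fell and 2 rose at 0 h, and 7 rose and 2 fell at 6 h. The list holds Sox14 itself, which was 1 of the 2 that fell in Sox14 RNAi at 0 h. The shares of all genes called are given with each comparison above. No difference between these lists and the members was tested.

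Some members with a peak at 6 h were high in the same libraries as genes of cuticle and trachea. CG2150 had 49, 95 and 80 normalized reads in EcR-DN at 6 h, 141, 231 and 14 in E75 RNAi and 1, 228 and 6 in Sox14 RNAi, against 369 and 715 in control. CG11382 had 19, 27 and 57 in EcR-DN, 97, 25 and 46 in E75 RNAi and 1, 88 and 0 in Sox14 RNAi, against 262 and 174 in control. Both fell in Sox14 RNAi (limma adjusted p = 0.0169 and 0.0063), and both were high in Sox14 RNAi replicate B and near 0 in replicates A and C. Osi7, an epithelial gene of the Osiris family, had 1, 149 and 2 in the same Sox14 RNAi libraries, 299, 527 and 142 in EcR-DN and 703, 539 and 376 in E75 RNAi, against 781 and 1256 in control.

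The whole list of 196 cuticle and tracheal genes summed to 1065 to 2135 in Sox14 RNAi at 6 h, 2110 to 2989 in EcR-DN and 3060 to 3541 in E75 RNAi, against 5257 and 6922 in control. At L3 it summed to 1054 and 1068 in control. Of 52 list genes tested, 20 rose in control at 6 h against L3 (limma), and 15 fell in Sox14 RNAi, 6 in E75 RNAi and 5 in EcR-DN against control at 6 h. Among 13 epithelial and tracheal markers, 1 was at 0 in both control libraries at 6 h. The part of cells or RNA from such tissue in the 6 h values of CG2150, CG11382, CG4115, CG30053 and CG15130 was not tested. CG30053 did not follow Osi7 in every library at 6 h. It had 0, 40 and 0 in E75 RNAi, where Osi7 had 703, 539 and 376. In Sox14 RNAi replicate B it had 1, where Osi7 had 149. In developmental γ neurons at 3 h the means were 112 for CG30053 and 79.3 for CG15130. They were 2 for CG11382 and 0 for CG2150 and CG4115. CG4115 had 3, 62 and 19 in Sox14 RNAi at 6 h, against 256 and 321 in control. It had 0, 315 and 3 in Sox14 RNAi at L3 and 254, 0 and 2 at 0 h. The epithelial and tracheal markers summed to 118, 854 and 326 in the same L3 libraries and to 827, 113 and 81 in those at 0 h, so that CG4115 was high in the library with the highest marker sum at each stage.

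In the adult brain the members were tested in cells that the choice had not used. Of 64 members with enough reads, 17 were higher and 23 lower in astrocyte-like cells than in αβ neurons and neurons outside the mushroom body, where 18.8% of all 7397 genes tested were higher and 27.3% lower (limma, Benjamini-Hochberg adjusted p under 0.05). The median log2 fold change was -1.07 for members and -0.54 for all genes. The other 15 members had fewer than 3 of these 12 libraries with 10 normalized reads, among them CG30053, CG2150, CG4115, CG11382 and CG5958.

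CG4829, the γ-glutamyl transpeptidase, had 4390, 4589, 3893 and 4251 normalized reads in astrocyte-like cells, against 52, 2, 37 and 74 in αβ neurons and 35, 33, 41 and 11 in neurons outside the mushroom body. Its log2 fold change was 7.31 ± 0.67 (SE; limma adjusted p = 4.36e-07), and in γ neurons its developmental peak at 0 h had been 92, 209, 252 and 61. CG5888 had 908, 641, 720 and 754 in astrocyte-like cells, against 4, 21, 26 and 59 in αβ neurons and 21, 18, 1 and 6 in the other neurons (5.81 ± 0.70, limma adjusted p = 6.81e-06). Both were thus higher in adult astrocyte-like cells than in any γ neuron library. CG11791 had 272, 56, 91 and 165 in astrocyte-like cells, and CG1146 had 104, 13, 133 and 106, while neither passed 16 in any library of the 2 neuron groups. These 4 genes did not overlap between astrocyte-like cells and neurons, which was a condition for naming them.

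The reverse held for others. CG14431 had 0, 0, 57 and 21 normalized reads in astrocyte-like cells, against 211, 259, 385 and 364 in αβ neurons and 217, 190, 277 and 225 in neurons outside the mushroom body (log2 fold change -5.44 ± 0.90, limma adjusted p = 0.000154). CG31814 (DIP-kappa) had 27, 0, 34 and 19 in astrocyte-like cells, against 649, 714, 645 and 564 in αβ neurons and 189, 216, 206 and 154 in the other neurons (-4.89 ± 0.71, limma adjusted p = 4.58e-05). In adult γ neurons CG31814 had 12, 4, 4 and 27, so that a gene that was highest at 3 h in γ neurons was high in adult αβ neurons. CG34384 had 0, 17, 65 and 61 in astrocyte-like cells, against 291, 358, 287 and 175 in αβ neurons and 467, 553, 397 and 579 in the other neurons. CG15803 had 3, 4, 0 and 14, against 103, 146, 228 and 142 and against 138, 133, 78 and 161. By the spacing of low values, 1 read was worth 2.35 to 4.35 normalized reads in the astrocyte-like libraries. Such low values there therefore rest on few reads.

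Between the neuron groups, 10 members were lower in αβ neurons than in neurons outside the mushroom body and no called member was higher, where 6.25% of all genes were lower and 2.76% higher (limma, Benjamini-Hochberg adjusted p under 0.05). The median log2 fold change was -0.51 for members and -0.14 for all genes. In a fit on all 64 developmental libraries, whose filter kept all 79 members, 21 were lower and 4 higher, and with a pseudocount of 8 14 were lower and 2 higher. CG42594, the potassium channel gene, had 1, 15, 44 and 1 normalized reads in αβ neurons, against 217, 465, 464 and 480 in neurons outside the mushroom body (-5.73 ± 1.37, limma adjusted p = 0.0141). CG13579, the orphan receptor, had 0, 1, 0 and 0 in αβ neurons, against 99, 102, 46 and 59 in the other neurons. CG34393 had 0, 6, 3 and 20 in αβ neurons, against 167, 199, 173 and 177, and CG15236 had 6, 49, 25 and 1, against 227, 211, 264 and 273. The libraries of these 4 genes did not overlap between the neuron groups, which was a condition for naming them.

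**Figure D5:**
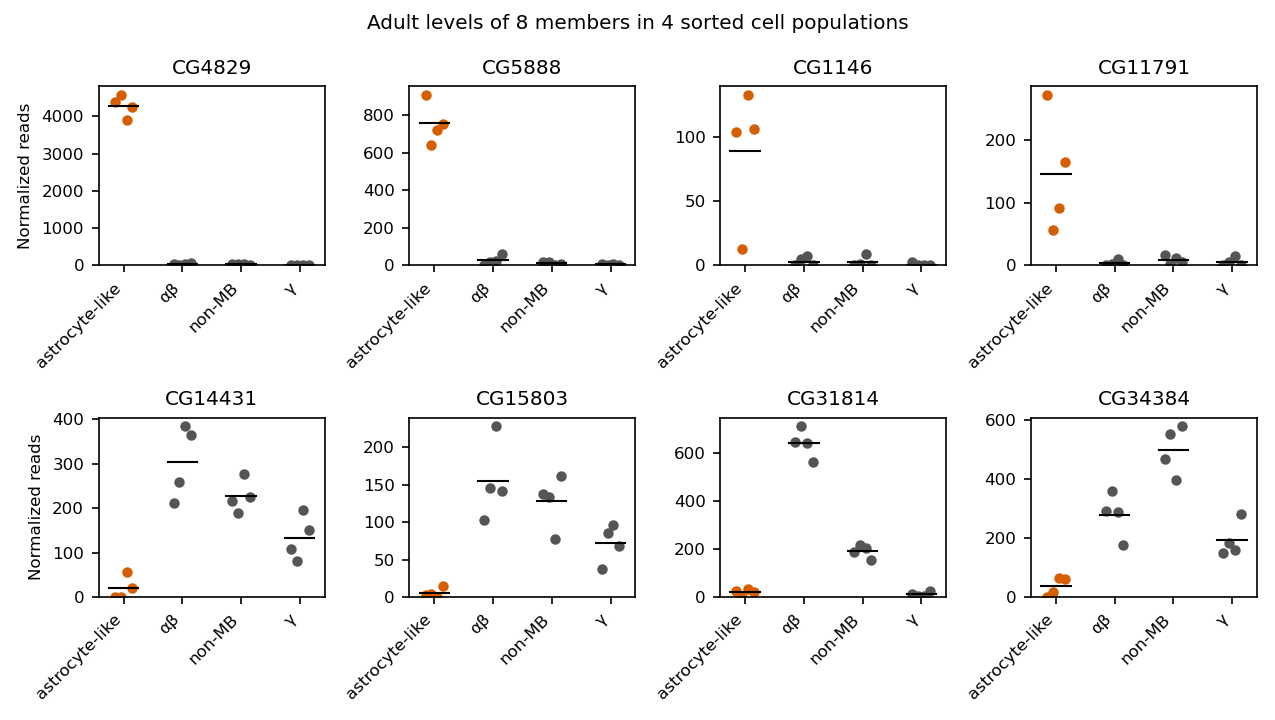
Normalized reads (linear axes from 0) of 8 members in adult astrocyte-like cells, αβ neurons, neurons outside the mushroom body (non-MB) and γ neurons, with 4 libraries per group as points and the mean as a line. CG4829 lies at 3893 to 4589 in astrocyte-like cells and at 74 or below in αβ and non-MB neurons, and CG31814 at 564 to 714 in αβ neurons.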

How the data were processed

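The authors deposited a developmental table of 64 libraries and a perturbation table of 43, with a score per gene in whole numbers, which the file headers call normalized raw data and which is called normalized reads here. No source used here names the normalization method, so that tests stay within a table. Per the submitters' processing notes, bcl2fastq, HISAT 0.1.5 and HOMER were used. No build is stated. The labels' protocols describe molecular barcodes, and whether molecules or reads were counted is not stated. Depth is therefore mostly unknown: the spacing of low values gave it in 6 and 4 libraries only. All 4 astrocyte-like libraries are among the 6, at an estimated 4.75e+05 to 8.70e+05 reads.

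Genes with at least 10 in at least 2 perturbation libraries (8656 genes, all 79 members) or in at least 3 of 12 adult libraries outside γ neurons (7397 genes, 64 members) were tested on log2(value + 1) with limma 3.58.1 in R 4.3.3 (empirical Bayes with trend, 1 mean per group, all groups sharing one spread), two-sided, with Benjamini-Hochberg adjustment over all genes and a threshold of 0.05. Fold changes on this scale understate changes of low genes. All 21 planned comparisons of the perturbation table, 2 of the adult table and 3 added after seeing the data were fitted. The procedure was run on simulated data with 1 dispersion for all genes, in which only genes with a mean of 50 or more were changed. Its recovery of changes in lower genes was not checked. Named members were the 5 with the highest mean per peak stage, and per comparison up to 4 called members in each direction with the largest change, libraries that did not overlap and a mean of 50 or more on the higher side. Others were chosen after their values were seen. The members and lists were chosen with earlier results of these data known. Alternatives changed the pseudocount, filter, scaling, variance model, samples fitted and replicate block.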

Additional observations from a re-analysis of the deposited data

Results flagged for a closer look

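The summed members made up 3.08% of the library labelled γ neurons 6 h replicate 2, against 3.43% to 3.47% of the other 3 libraries of that stage. Its gap was 0.886 of the range of the group, above Dixon's 95% value for 4 libraries. Chance gives such a gap in about 1 in 20 groups, and it was seen in 1 of 24 tests. These took the members' share per group and the reads of named members at their peak stage. Some libraries were therefore used in more than 1 test.

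CG5059 (BNIP3) moved in opposite directions in 2 perturbations at 6 h. It had 267, 259 and 185 normalized reads in Sox14 RNAi and 2003, 1804 and 3144 in libraries labelled E75 RNAi, against 902 and 970 in control. The direct difference of Sox14 RNAi against E75 RNAi was -3.26 on the log2 scale (limma adjusted p = 2.09e-13), lower in 3 of 3 libraries.

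CG7860, the asparaginase, did the same, with 68, 6 and 11 in Sox14 RNAi and 921, 907 and 1140 in libraries labelled E75 RNAi, against 212 and 82 in control. The direct difference was -5.78 on the log2 scale (limma adjusted p = 3.45e-08), lower in 3 of 3 libraries. No explanation of these 3 results was tested.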

How the results depend on the processing

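No called result of a named member changed its sign under the alternatives run, and the other called members were not checked for it. The members' median log2 fold change changed its sign in 1 case, EcR-DN against Sox14 RNAi at 0 h, where it was 0.06 and became -0.03 without EcR-DN 0 h replicate A. Rescaling by median-of-ratios factors, dropping the filter on low values and adding the replicate block left every count of called members within 1.5 times its value. With the replicate block, EcR-DN, E75 RNAi and Sox14 RNAi against control at 0 h had 42, 20 and 47 called members. Replicate letters were not found to pair the samples, since the correlation of same-lettered deviations was -0.0475 to 0.0860 over 57 pairs and above 0.1 in 0. The cause of the other changes was not tested.

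Fits on only the groups compared (limma) called 0 members for control 0 h and 6 h against L3, E75 RNAi against control at L3 and 0 h, and Sox14 RNAi against E75 RNAi at 0 h. In these, 42, 46, 31, 28 and 31 members were at an unadjusted p under 0.05, without the share of all genes at that level. Such fits called 12 for control 12 h against 6 h, 14 and 10 for EcR-DN at L3 and 6 h, 2 for E75 RNAi at 12 h, 1, 22 and 1 for Sox14 RNAi at L3, 0 h and 12 h, 1 for EcR-DN against Sox14 RNAi and 15 for EcR-DN against E75 RNAi at 0 h, and 2 for the Sox14 RNAi effect at 6 h minus 0 h. A robust fit without trend called 7 for control 0 h against L3, 10 and 3 for Sox14 RNAi at L3 and 12 h, and 12 for the E75 RNAi effect at 6 h minus 0 h. A pseudocount of 8 called 25 for EcR-DN (all lower) and 17 for E75 RNAi (9 higher, 8 lower) at 6 h, 19 for the Sox14 RNAi effect at 6 h minus 0 h (12 higher, 7 lower) and 16 for αβ against other neurons (2 higher, 14 lower). The last was 25 (4 higher, 21 lower) in a fit on all 64 developmental libraries, which tested 79 members in place of 64. Without the libraries labelled Sox14 RNAi L3 replicate A and 0 h replicate A, chosen after seeing the data, EcR-DN at 12 h had 4.

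Leaving out 1 library, always of the groups compared, gave 4 to 14 called members for control 0 h against L3. For control 6 h against L3 it gave 20 to 23, and for 12 h against 6 h 17 to 29. At L3, 6 h and 12 h it gave 18 to 27, 3 to 13 and 0 to 3 for EcR-DN, 12 to 24, 5 to 9 and 3 to 7 for E75 RNAi, and 6 to 13, 16 to 21 and 3 to 5 for Sox14 RNAi. It gave 7 to 16 for EcR-DN against Sox14 RNAi at 0 h. For the effect at 6 h minus 0 h it gave 8 to 13 for EcR-DN, 11 to 18 for E75 RNAi and 4 to 13 for Sox14 RNAi. The rule itself gave 75 to 86 members, and 78 from stage medians, 68 of them shared. Groups of 2 libraries and unknown depth limit what low members can show.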
